A study of Mus musculus with 15 samples.

Results

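The nuclear genes for subunits of complex III, complex IV and ATP synthase were examined in the gastrocnemius muscle of aged mice. They were chosen by symbol, as the protein-coding mouse genes whose names start with Uqcr, Cox4 to Cox8 or Atp5, together with Cyc1, and with a mean of at least 10 counts over the 15 mice. Of 46 genes with such a symbol, 43 met this limit out of 55450 counted genes, 9 of complex III, 16 of complex IV and 18 of ATP synthase. All 43 passed edgeR's filter on low counts and were among the 16920 genes tested. The other 3 were Cox7b2, Cox8c and a second gene record of Atp5o (ENSMUSG00000116933), which had 0 counts in every mouse. A count of 0 allows up to 3 counts, or 0.0977 to 0.155 CPM (here counts scaled to the total of the library) at the depth of these libraries. The CPM of genes given below are instead scaled to library sizes after normalization (TMM).

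All animals were female and of the C57BL/6JN strain, aged above 17 months, and each library is 1 mouse. The groups were Low Control (n = 4) and Low Run (n = 4), which the labels call robust and which had at most 1 positive frailty marker, and High Control (n = 3) and High Run (n = 4), which the labels call frail and which had at least 2. The Run mice ran downhill on a treadmill in 2 bouts (22 degrees of decline, 13 m/min), with muscle taken 24 h after the second, and the Control mice did not run. Per-mouse values are given below in the order D8, D9, D11 and D98 for Low Control, D57, D61, D66 and D68 for Low Run, D23, D25 and D67 for High Control, and D49, D52, D53 and D62 for High Run.

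Complex III passes electrons from ubiquinol to cytochrome c, and complex IV (cytochrome c oxidase) passes them on to oxygen, and both pump protons out of the mitochondrial matrix. ATP synthase lets the protons back through its membrane ring and uses their flow to make ATP in its F1 head. The catalytic subunits of complex IV, cytochrome b of complex III and parts of the ATP synthase membrane sector are encoded in mitochondrial DNA, whose genes are not in the count table, so only the nuclear part of each complex was measured. Several complex IV subunits exist as a heart and muscle isoform and a ubiquitous (liver) isoform, made from separate genes, and the c ring of ATP synthase is encoded by 3 genes for the same mature protein.

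Promoter windows, from 250 bases before to 50 bases after the annotated start, were taken from RefSeq (build GRCm38.p6) for 33 of the 43 genes and for 27025 genes in all. Atp5a1, Atp5mpl, Cox4i1, Cox4i2, Cox6a2, Cox6c, Cyc1, Uqcrb, Uqcrc2 and Uqcrq had no entry. The windows were searched on both strands for short motifs of factors known as regulators of respiratory chain genes. CCGGAAG, the ETS motif bound by GABP (also called NRF-2), was in the window of 11 of the 33 subunit genes (33.3%) and of 9.93% of all genes. GCGCATG, the core of the NRF-1 site, was in 7 (21.2%) and in 4.41% of all genes. AAGGTCA, the core of the site of estrogen-related receptors, was in 4 (12.1%), Atp5e, Atp5g3, Atp5k and Atp5l, against 5.38% of all genes. AAGATGG, the YY1 motif, was also in 4 (12.1%), against 7.28%. The E-box CAGCTG, which myogenic factors bind, was in 2 (6.1%), Atp5b and the muscle isoform Cox8b, against 18.29%, and a MEF2 motif in 0 of 33, against 3.7%. The GC content of the subunit windows had a median of 56.0%, and that of all windows 52.7%.

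The upstream 250 bases are printed for 4 genes whose values are described below. Uqcrh and Atp5k had the smallest unadjusted p of their complex after running in Low mice, and Cox6a1 and Cox8b are a ubiquitous and a muscle isoform of complex IV. Capitals mark motif matches, which are GABP in Uqcrh, NRF-1 matches overlapping on both strands in Atp5k, the same together with GABP nearer the start in Cox6a1, and the E-box in Cox8b. All 4 lie on the minus strand, at chr4:116075071-116075320 (Uqcrh), chr5:108434400-108434649 (Atp5k), chr5:115348959-115349208 (Cox6a1) and chr7:140900447-140900696 (Cox8b), and are written 5′ to 3′ toward the start.
Uqcrh: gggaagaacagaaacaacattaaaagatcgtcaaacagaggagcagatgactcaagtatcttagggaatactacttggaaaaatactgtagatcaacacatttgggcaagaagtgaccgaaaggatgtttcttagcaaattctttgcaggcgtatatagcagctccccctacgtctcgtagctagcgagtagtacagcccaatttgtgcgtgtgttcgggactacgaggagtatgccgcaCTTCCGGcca
Atp5k: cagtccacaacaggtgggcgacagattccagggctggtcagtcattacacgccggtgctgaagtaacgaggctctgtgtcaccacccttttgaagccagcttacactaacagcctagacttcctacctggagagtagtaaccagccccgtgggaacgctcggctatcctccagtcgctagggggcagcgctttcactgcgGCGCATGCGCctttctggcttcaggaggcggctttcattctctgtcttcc
Cox6a1: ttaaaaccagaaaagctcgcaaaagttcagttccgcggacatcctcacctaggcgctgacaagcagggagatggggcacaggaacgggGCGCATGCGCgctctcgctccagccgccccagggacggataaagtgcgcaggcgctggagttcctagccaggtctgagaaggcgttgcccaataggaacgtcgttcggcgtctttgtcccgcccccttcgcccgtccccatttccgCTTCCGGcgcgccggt
Cox8b: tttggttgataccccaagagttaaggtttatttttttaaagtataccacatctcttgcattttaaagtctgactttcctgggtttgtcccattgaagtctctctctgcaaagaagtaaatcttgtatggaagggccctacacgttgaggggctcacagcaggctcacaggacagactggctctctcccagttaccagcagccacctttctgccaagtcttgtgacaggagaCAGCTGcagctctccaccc
A match of these letters is a description of the sequence, and binding was not measured.

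To compare genes with each other, CPM were divided by exon length in kb, taken over all annotated exons of the gene. This length can far exceed the coding sequence, as in Uqcrc1 (4135 against 1440 bases) and Atp5g1 (4912 against 408). The order of genes per kb therefore depends on the annotation. By CPM alone Uqcrc1 was the highest of complex III, at 695, against 212 for Uqcr10. In complex III, the 9 genes lay close together, from 122 CPM per kb for Uqcrb to 364 for Uqcr10, a small subunit of the membrane arm. The other abundant gene was Uqcrfs1, the Rieske iron-sulfur protein, at 326 CPM per kb. The core proteins Uqcrc2 and Uqcrc1 were at 223 and 168 CPM per kb, and Cyc1, the cytochrome c1 subunit, at 195. Uqcr10 was at 193, 155, 189.7 and 211 CPM in Low Control, 233, 197, 212 and 287 in Low Run, 229.9, 198 and 223 in High Control and 197, 202, 288 and 169.9 in High Run mice, with its lowest value in D9 and its highest in D53 and D68.

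Complex IV spanned a wider range of levels. The muscle isoforms Cox6a2, at 930.4 CPM per kb, and Cox8b, at 559, were its most abundant genes and Cox6a2 was the highest of all 43. Cox6b1 and Cox4i1, ubiquitous isoforms with no major muscle counterpart, followed at 444 and 439.8 CPM per kb. The lowest were Cox4i2, the isoform known from lung, at 2.42 and Cox6b2, the isoform known from testis, at 0.605. These 2 rest on means of 48.5 and 17.1 counts per mouse.

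In ATP synthase the catalytic head subunits led, with Atp5a1 (alpha) at 772 and Atp5b (beta) at 742 CPM per kb. Atp5c1, the gamma subunit of the central stalk, followed at 289 and Atp5g3, the main c ring gene, at 254. The lowest was Atp5g2, another c ring gene, at 0.774 CPM per kb. Atp5s, which RefSeq names Dmac2l and which is not a structural subunit, was at 7.80. Per mouse, Atp5a1 had 2401, 2124, 2447 and 2324 CPM in Low Control, 2144, 2441, 2416 and 2754 in Low Run, 2680.00, 2523 and 2577 in High Control and 2424, 2514, 2730.4 and 1794 in High Run mice. Atp5b had 3089, 2816, 3222 and 2867 CPM in Low Control, 2792, 3287, 3154 and 3682 in Low Run, 3333, 3205 and 3401 in High Control and 3142, 3149, 3589 and 2408 in High Run mice. Both genes were lowest in D62 and highest in D68.

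The way reads were counted bears on some of these levels. Only uniquely aligned pairs entered the table, and 16 of the 43 genes have a near-identical copy elsewhere in the annotation, mostly a processed pseudogene (at least 95% identity over at least 100 bases of coding sequence). For Cox7c, 82.3% of the summed counts of the gene and its most counted copy were assigned to the copy, Gm12338. The share was 72.0% for Atp5h (Gm10250), 69.0% for Atp5l (Gm10221), 62.5% for Atp5md (Gm14539), 53.5% for Atp5g1 (Gm10039), 43.7% for Cox5b (Gm11273) and 39.6% for Atp5g2 (Gm10231). It was 20.8% for Atp5o (Gm5436), 20.5% for Uqcrb (Gm2962), 16.5% for Uqcr11 (Gm16418), 13.6% for Cox6c (Cox6c2) and 13.1% for Atp5f1 (Gm12231). In the rest of the 16 it was at most 5.26% (Cox7a2l). Reads of such a gene and its copy cannot be told apart with certainty, and the levels and changes of these genes are uncertain to that extent.

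**Figure D1:**
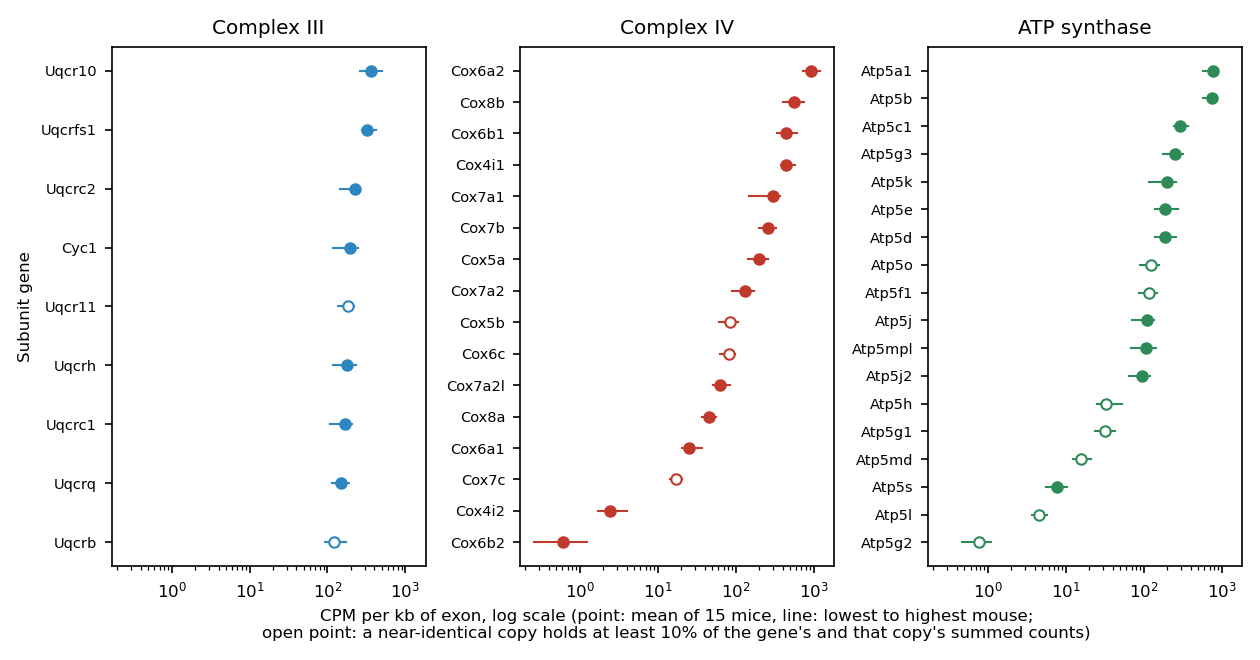
Level of the 43 subunit genes in CPM per kb of exon on a log axis, as the mean of 15 mice (point) with the lowest and highest mouse (line); open points mark genes with at least 10% of the summed counts in 1 near-identical copy. Complex III lies between 122 and 364, while complex IV runs from 0.605 (Cox6b2) to 930.4 (Cox6a2).

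Within groups the subunit genes moved together from mouse to mouse. After subtraction of group means, the median Pearson correlation of log2(CPM + 0.5) over the 15 mice was 0.86 between 2 genes of complex III, 0.81 within ATP synthase and 0.60 within complex IV. Across complexes the median was 0.85 between complex III and ATP synthase, 0.71 between complexes III and IV, and 0.67 between complex IV and ATP synthase. These genes share libraries and depth, so the values describe these mice. Counts of subunit genes above or below 0, given further on, are therefore not counts of independent observations. The genes that followed the mean of the other subunits of their complex most closely were Atp5f1 (0.99), Uqcrq (0.98) and Uqcrh (0.97). Those that followed it least were Atp5g2 (-0.03), Cox8a (0.33), the supercomplex factor Cox7a2l (0.42) and Cox6b2 (0.50).

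To show each complex per mouse, log2(CPM + 0.5) of each gene was centred on its mean over the 15 mice and averaged over the genes. For ATP synthase this level was -0.06, -0.34, -0.07 and -0.06 in Low Control mice and 0.04, -0.01, 0.04 and 0.32 in Low Run mice. It was 0.13, -0.02 and 0.10 in High Control mice and -0.06, -0.0011, 0.35 and -0.36 in High Run mice. Low Control mouse D9 and Low Run mouse D68 were therefore apart from the rest of their groups, and High Run mice D53 and D62 lay at opposite ends. Complex III had its lowest value in D62 (-0.45) and its highest in D68 (0.34), and complex IV its lowest in D9 (-0.30) and its highest in D53 (0.34). The mean was -0.12 ± 0.15 (SD, n = 4) in Low Control and 0.11 ± 0.15 in Low Run mice for complex III, -0.12 ± 0.12 and 0.13 ± 0.15 for complex IV, and -0.13 ± 0.14 and 0.10 ± 0.15 for ATP synthase. In High Control (n = 3) and High Run (n = 4) mice it was 0.08 ± 0.09 and -0.05 ± 0.31 for complex III, -0.02 ± 0.09 and 0.00 ± 0.23 for complex IV, and 0.07 ± 0.08 and -0.01 ± 0.29 for ATP synthase. The SD of High Run mice was larger than that of any other group in all 3 complexes.

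**Figure D2:**
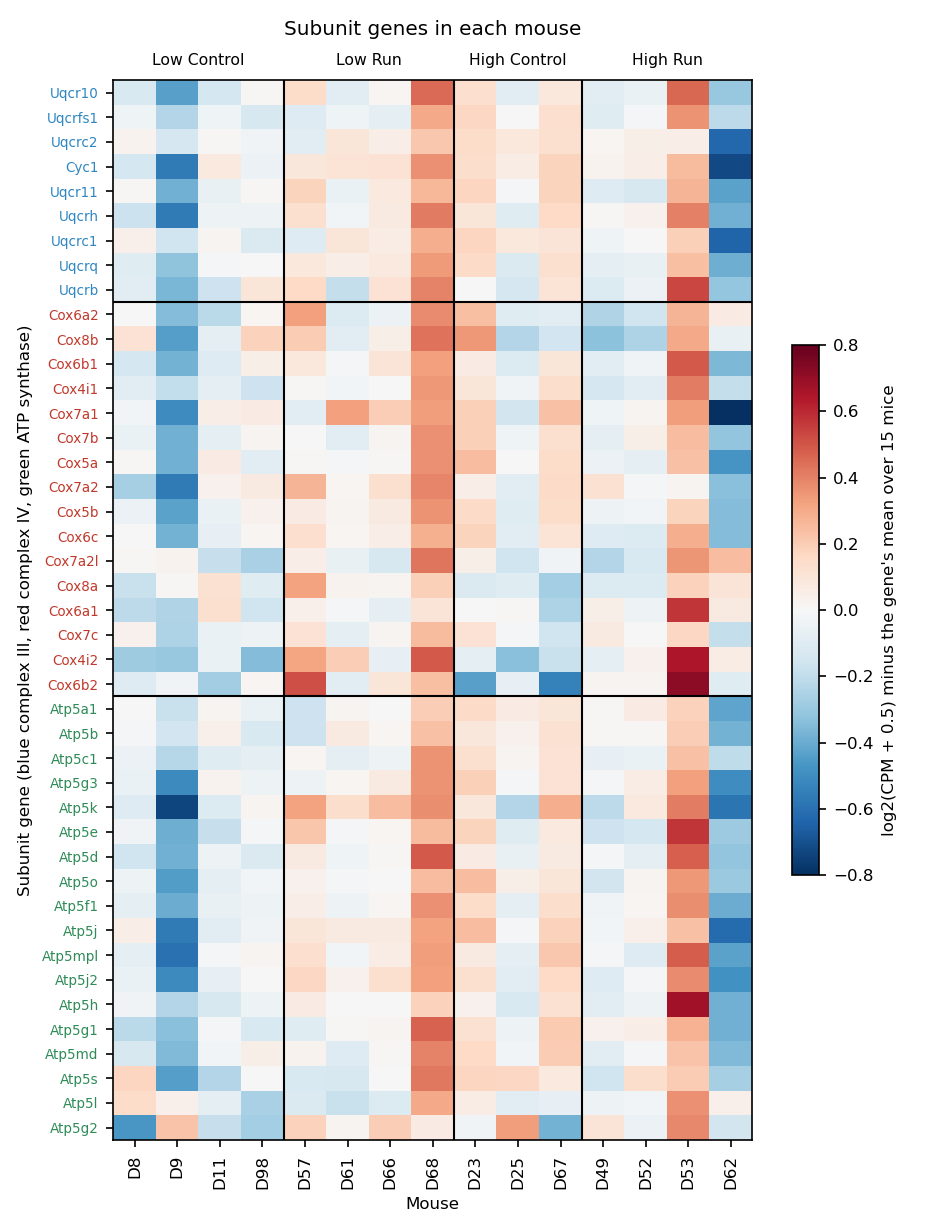
Each of the 43 subunit genes (rows, by complex and falling level per kb) in each of the 15 mice (columns, by group), as log2(CPM + 0.5) minus the gene's mean. D9 and D62 are low and D68 and D53 are high across most genes of all 3 complexes.

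**Figure D3:**
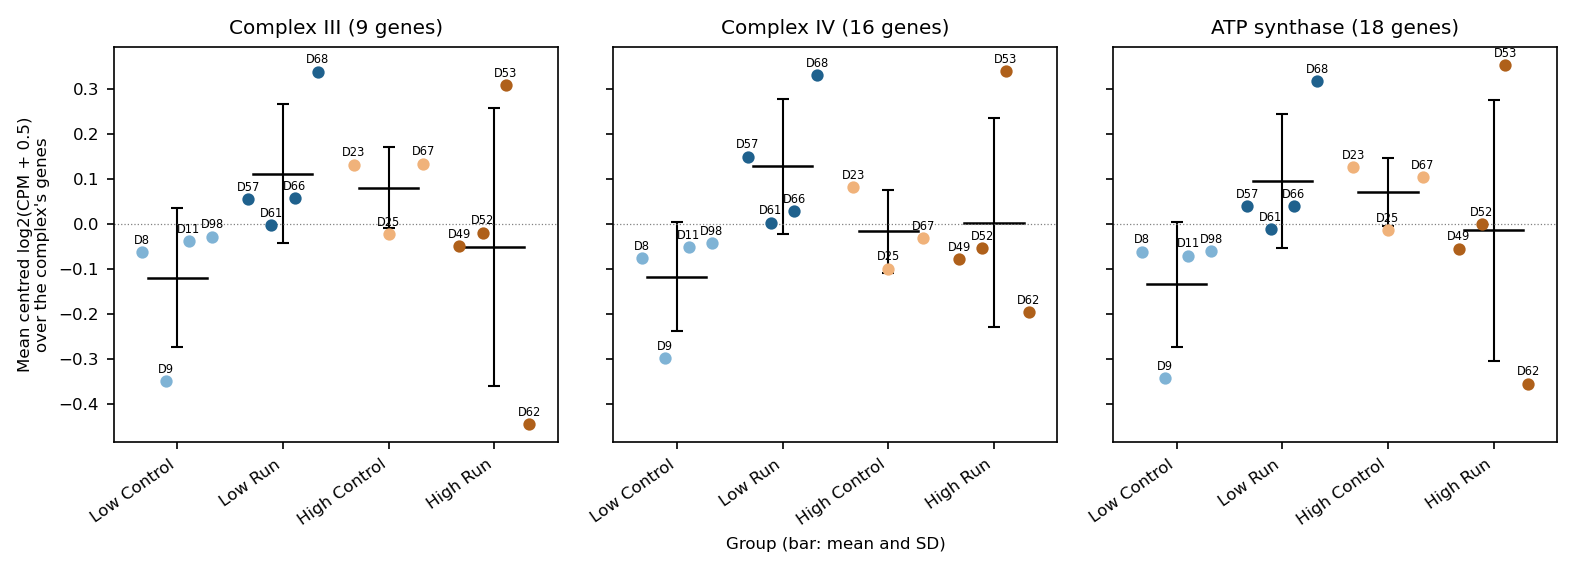
Mean centred log2(CPM + 0.5) over the genes of each complex, 1 point per mouse, with the group mean and SD. The 4 Low Run mice lie above the 4 Low Control mice in all 3 complexes, and High Run mice span from -0.36 to 0.35 for ATP synthase.

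Among Low mice, all 43 subunit genes had a log2 fold change above 0 in the Run group compared to the Control group, as did 51.9% of the 16920 genes tested. The median was 0.24, against 0.02 for all genes, with 0.25 in complex III, 0.22 in complex IV and 0.24 in ATP synthase. No subunit gene passed an FDR of 0.1 by edgeR (0% of all genes did), and the smallest FDR was 0.358. By DESeq2's Wald test and by voom the count of subunit genes was also 0. The shares of all genes given here and below are edgeR's only. At an unadjusted edgeR p under 0.05, 3 of the 43 were higher and 0 lower, where 5.92% of all genes were higher and 7.52% lower. Values of 12 of the 43 did not overlap between the groups and were higher in Low Run mice, against 3.35% of all genes. None was apart in the lower direction (3.59% of all genes). The 12 were Atp5d, Atp5f1, Atp5h, Atp5j, Atp5j2, Atp5k, Atp5o, Cyc1, Uqcrh, Uqcrq, Cox4i1 and Cox6c. They made up 3 of 9 complex III, 2 of 16 complex IV and 7 of 18 ATP synthase genes. Of the 27 subunit genes without a near-identical copy, 7 were apart. In whole muscle, fewer cells of a type and less RNA per cell cannot be told apart.

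The 2 mice that stood apart carried part of this difference. The median over the subunit genes was 0.15 without D9 and also 0.15 without D68, with 43 and 41 of the genes above 0. It was 0.13 with voom's sample quality weights, and 0.11 with offsets for gene length and GC content, where 38 of the 43 remained above 0 and Atp5b turned to -0.03.

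Atp5k encodes subunit e, which holds ATP synthase dimers together in the inner membrane. Its CPM were 112, 72.4, 112 and 123 in Low Control and 151, 133, 143 and 156 in Low Run mice, so that every Low Run mouse was above every Low Control mouse (log2 fold change 0.48, SE 0.20, edgeR FDR = 0.358). Uqcrh, the hinge protein that helps cytochrome c1 dock cytochrome c, was at 194, 147, 212 and 211 CPM in Low Control and 238, 215, 229 and 290.03 in Low Run mice. Its groups also did not overlap (log2 fold change 0.35, SE 0.17, edgeR FDR = 0.376), although the lowest Low Run mouse was only slightly above the highest Low Control mouse. Cox4i2 had the largest fold change of the 43, with 1.43, 1.41, 1.77 and 1.35 CPM in Low Control and 2.44, 2.20, 1.75 and 2.81 in Low Run mice (log2 fold change 0.62, SE 0.24, edgeR FDR = 0.358). One Low Run mouse, D66, lay just below the highest Low Control mouse. Cox7a2, the ubiquitous isoform of subunit VIIa, was at 103, 83.7, 128 and 131 CPM against 150.2, 126, 136 and 163 (log2 fold change 0.37, SE 0.15, edgeR FDR = 0.358), again with overlap. The head subunits of ATP synthase differed little, with a log2 fold change of 0.07 (SE 0.14) for Atp5a1 and 0.11 (SE 0.13) for Atp5b, while the abundant muscle isoform Cox6a2 was at 0.28 (SE 0.16). Atp5a1 turned to -0.003 without D68.

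Among High mice, 31 of the 43 subunit genes had a log2 fold change below 0 in the Run group compared to the Control group and 12 had one above, where 57.2% of all genes were above. The median was -0.08, against 0.05 for all genes, with -0.11 in complex III, -0.04 in complex IV and -0.10 in ATP synthase. None passed the FDR by edgeR (0% of all genes did), and the smallest FDR was 0.956. By DESeq2 and by voom 0 of the 43 passed it. The study itself reported other genes, such as Mpeg1 and Ccl8, at an FDR under 0.1 by DESeq2 in this comparison. By gene set enrichment it also reported sets for oxidative phosphorylation and complex assembly as higher after running in Low and lower in High mice. That method ranks all genes and tests sets, so it is another measure than calls of single genes, and it was not repeated here. At an unadjusted edgeR p under 0.05, 1 of the 43 subunit genes was higher (3.28% of all genes) and 0 lower (1.9%). Only Uqcrc2 did not overlap between the groups in the lower direction, against 3.6% of all genes, and 0 of the 43 did in the higher direction, against 3.47%. The sign of the median rested on single mice. Without D62 it was 0.0061, with 23 genes above 0, and without D53 it was -0.20, with 6 above 0.

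Uqcrc2, a core protein of complex III, was at 628, 599.8 and 619 CPM in High Control and 573, 585, 586 and 367 in High Run mice (log2 fold change -0.22, SE 0.15, edgeR FDR = 0.956). D62 lay far below the other 3 High Run mice, which were just under the lowest High Control mouse. Atp5j, the F6 subunit of the peripheral stalk, had 402, 335 and 385 CPM in High Control and 334, 349, 399 and 221 in High Run mice (log2 fold change -0.20, SE 0.19, edgeR FDR = 0.958), and the groups overlapped. The gene with an unadjusted p under 0.05 was Cox6b2, at 0.348, 0.591 and 0.287 CPM in High Control and 0.659, 0.661, 1.38 and 0.567 in High Run mice (log2 fold change 0.98, SE 0.40, edgeR FDR = 0.956). It had the lowest level of the 43, with as few as 6 counts in 1 mouse, and of these 7 mice D53 alone exceeded 1 CPM. Cox4i2 was at 1.74, 1.37 and 1.58 CPM against 1.73, 1.91, 3.19 and 1.95 (log2 fold change 0.49, SE 0.26, edgeR FDR = 0.956), also with its highest value in D53.

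**Figure D4:**
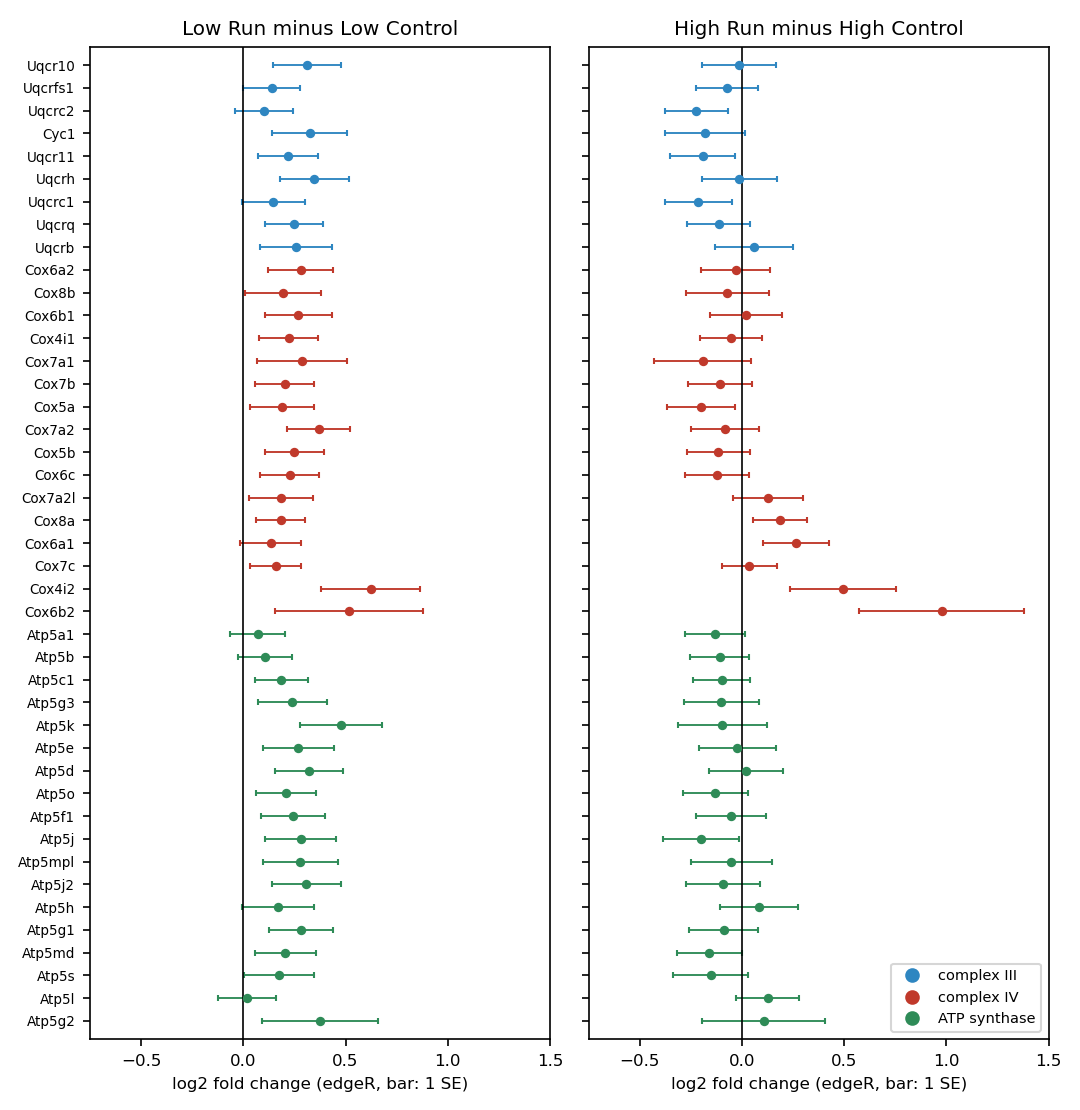
Log2 fold change (edgeR, bar 1 SE) of each of the 43 subunit genes for Low Run minus Low Control (left) and High Run minus High Control (right), coloured by complex. All 43 lie above 0 on the left, and 31 lie below 0 on the right, where Cox6b2 and Cox4i2 are the farthest above 0.

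The Frailty × Run interaction, which compares the difference after running in High mice with that in Low mice, was below 0 for 39 of the 43 subunit genes, where 53.1% of all genes were above 0. The median was -0.31, against 0.03 for all genes, with -0.36 in complex III, -0.27 in complex IV and -0.31 in ATP synthase. None passed an FDR of 0.1 by edgeR (0% of all genes did), and the smallest FDR was 0.600. By DESeq2 and by voom 0 of the 43 passed it. At an unadjusted p under 0.05 there were 0 subunit genes in either direction, against 2.69% of all genes lower and 5.24% higher. With each mouse left out in turn, between 38 and 41 of the 43 were below 0, and the median ran from -0.44 without D53 to -0.21 without D62. The genes above 0 were Cox6b2, Cox6a1, Cox8a and Atp5l. Of these, Cox8a, at 0.005, turned to -0.005 by DESeq2 and to -0.02 by voom. Cox6a1, at 0.13, turned to -0.03 without D53. Since both differences after running enter this contrast, it is not evidence apart from them. The subunit genes moved together from mouse to mouse, so their signs are not independent of each other.

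The smallest p of each complex in the interaction belonged to Uqcr11 (log2 fold change -0.41, SE 0.22, edgeR FDR = 0.600), Cox7a2 (log2 fold change -0.45, SE 0.23, edgeR FDR = 0.600) and Atp5k (log2 fold change -0.57, SE 0.30, edgeR FDR = 0.600). Uqcr11, a small subunit of complex III, was at 118, 90.03, 113 and 118 CPM in Low Control and 133, 113, 124 and 141 in Low Run mice. It was at 132, 117 and 133 CPM in High Control and 109, 107, 142 and 87.3 in High Run mice. Both pairs of groups overlapped. Cox7a2 had 129, 117 and 138 CPM in High Control and 135, 124, 126 and 98.5 in High Run mice, and Atp5k had 129, 103 and 148 and 105, 128, 161 and 80.6. In each of the 3 genes the lowest High Run value was that of D62.

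High Control and Low Control mice did not run and differ in frailty group, which was taken from their markers and not assigned. In High Control compared to Low Control mice, 40 of the 43 subunit genes had a log2 fold change above 0, where 47.2% of all genes did. The median was 0.20, against -0.02 for all genes, with 0.21 in complex III, 0.16 in complex IV and 0.22 in ATP synthase. None passed the FDR by edgeR (0% of all genes did), with a smallest FDR of 0.704, and 0 of the 43 did by DESeq2 and by voom. At an unadjusted p under 0.05 there were 0, against 1.8% of all genes higher and 4.06% lower. In 7 genes, Atp5a1, Atp5c1, Atp5o, Uqcrc1, Uqcrc2, Uqcrfs1 and Cox4i1, every High Control mouse was above every Low Control mouse, which held for 5.13% of all genes, and in 0 genes was every mouse below (5.27% of all genes). The median was 0.11 without Low Control mouse D9, where 38 genes were above 0, and 0.13 with offsets for length and GC content as well as with voom's weights.

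Atp5o, the oligomycin sensitivity protein that joins the head to the peripheral stalk, had 236, 177, 229.7 and 238 CPM in Low Control and 287, 250.3 and 259 in High Control mice (log2 fold change 0.27, SE 0.16, edgeR FDR = 0.704). The groups did not overlap, and D9 was the lowest mouse. Cyc1 had 376, 279.8, 436 and 401 against 457, 431 and 469 CPM (log2 fold change 0.28, SE 0.20, edgeR FDR = 0.709) and Cox7b had 302, 240.1, 297 and 319 against 358, 305 and 342 (log2 fold change 0.21, SE 0.16, edgeR FDR = 0.715), with overlap in both. These 2 genes and Atp5o had the smallest p of their complexes. Uqcrfs1 was at 432, 376, 431 and 403 CPM in Low Control and 495, 441 and 484 in High Control mice, without overlap (log2 fold change 0.21, SE 0.15, edgeR FDR = 0.712). In Low Run mice it was at 412, 431, 419 and 545 CPM and in High Run mice at 413, 437, 568 and 382.

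In High Run compared to Low Run mice, 40 of the 43 subunit genes had a log2 fold change below 0, where 52.2% of all genes were above 0, with a median of -0.10 against 0.01 for all genes. None passed the FDR by edgeR (0% of all genes did), and 0 of the 43 did by DESeq2 and by voom. At an unadjusted edgeR p under 0.05 there were 0 (0.987% of all genes were lower and 1.52% higher). In 0 did the groups separate (0.774% of all genes were lower and 0.721% higher). The number below 0 rested on single mice, with 25 of the 43 without D62 and 27 without D68. The median was -0.01 without D62 and -0.02 without D68, and -0.26 without D53, where 41 were below 0. Low Control and High Control mice each enter 2 of these pairwise comparisons and the interaction, as do the Run mice, so the comparisons share animals.

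Tissue isoforms of the same subunit were compared by their ratio within each mouse, which leaves out what the 2 genes have in common. The heart and muscle isoform Cox6a2 exceeded the ubiquitous Cox6a1 by a median of 35.9 times per kb of exon, and Cox8b exceeded Cox8a 11.1 times. Cox7a1 exceeded Cox7a2 only 2.27 times. Cox4i2 and Cox6b2 were far below their ubiquitous partners, at 2.42 against 439.8 CPM per kb and 0.605 against 444. Of the c ring genes, Atp5g1 was at 31.6 and Atp5g2 at 0.774 CPM per kb, against 254 for Atp5g3. The first 2 of these share reads with copies, as given above.

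Cox6a2 had 625, 492, 539.6 and 633 CPM in Low Control, 785, 579, 607 and 812 in Low Run, 740.5, 585 and 591 in High Control and 530.05, 561, 755 and 655 in High Run mice. Cox6a1 had 14.97, 14.7, 19.02 and 15.5, then 17.9, 17.3, 16.5 and 18.7, then 17.4, 17.5 and 14.6, then 17.9, 16.9, 26.1 and 18.3 CPM in the same groups. Cox6a1 was thus highest in D53, and Cox6a2 was not low in D62, unlike most subunit genes. The log2 ratio of Cox6a2 to Cox6a1 was 5.34, 5.02, 4.79 and 5.31 in Low Control and 5.42, 5.03, 5.16 and 5.40 in Low Run mice. It was 5.37, 5.02 and 5.30 in High Control and 4.85, 5.01, 4.83 and 5.12 in High Run mice. High Run mice had the lowest group mean, but their values overlapped those of every other group. The difference from running was 0.14 in Low mice and -0.28 in High mice, and the interaction was -0.42 (exact permutation test, two-sided, p = 0.0592, Benjamini-Hochberg adjusted p = 0.414 over 35 ratio tests).

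Cox7a1 had 154, 109.99, 162 and 164 CPM in Low Control, 147, 196, 179 and 197 in Low Run, 179, 141 and 184 in High Control and 153, 159, 197 and 79.7 in High Run mice. The log2 ratio to Cox7a2 ran from -0.30 in D62 to 0.64, and D62 and Low Run mouse D57 were the mice in which Cox7a2 had more CPM than Cox7a1. Cox8b had 214, 146, 188 and 225 CPM in Low Control, 228, 186, 205 and 268 in Low Run, 252, 168 and 178 in High Control and 158, 167, 245 and 189.9 in High Run mice. Cox8a had 24.5, 27.9, 30.3 and 25.9, then 34.8, 28.3, 28.2 and 31.8, then 25.6, 25.9 and 22.9, then 25.8, 25.7, 31.6 and 29.9 CPM, and its range over all mice was among the narrowest of complex IV. The Cox8b to Cox8a ratio overlapped in every comparison of 2 groups, with exact p from 0.257 to 0.829.

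The 2 ratio tests with an unadjusted p under 0.05 concerned rare isoforms in High mice. The log2 ratio of Cox4i2 to Cox4i1, on log2(CPM + 0.5), was -8.34, -8.47 and -8.49 in High Control and -8.11, -8.04, -7.93 and -7.92 in High Run mice, without overlap (difference 0.43, exact permutation p = 0.0286, adjusted p = 0.414). In Low mice it was -8.36, -8.27, -8.14 and -8.35 against -7.86, -7.95, -8.23 and -8.02 (difference 0.27, exact permutation p = 0.0571, adjusted p = 0.414), with overlap. The partner Cox4i1 had 636, 589, 641 and 603 CPM in Low Control, 680.1, 666, 674 and 859 in Low Run, 725, 662 and 747 in High Control and 617, 635, 898 and 591 in High Run mice.

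Cox6b2 had 0.564, 0.621, 0.442 and 0.656 CPM in Low Control and 1.14, 0.577, 0.725 and 0.852 in Low Run mice, where the groups overlapped (log2 fold change 0.52, SE 0.36, edgeR FDR = 0.493). Cox6b1 had 282, 239, 289 and 320.4 CPM in Low Control, 329, 309, 333 and 390.4 in Low Run, 325, 288 and 332 in High Control and 292, 305, 437 and 242 in High Run mice. For Cox6b1 the log2 fold change was 0.27 (SE 0.16) after running in Low mice and 0.02 (SE 0.18) in High mice. The log2 ratio of Cox6b2 to Cox6b1 was -8.58, -8.05 and -8.72 in High Control and -7.98, -8.04, -7.87 and -7.83 in High Run mice (difference 0.52, exact permutation p = 0.0286, adjusted p = 0.414). In Low mice it was -8.05, -7.74, -8.26 and -8.12 against -7.65, -8.17, -8.09 and -8.18 (difference 0.02, exact permutation p = 0.857, adjusted p = 0.909). The pseudocount is about as large as the CPM of Cox6b2 and sets these sizes. With a pseudocount of 0.1 the differences were 0.83 in High and 0.16 in Low mice. The interaction of this ratio was 0.50 (exact permutation p = 0.113, adjusted p = 0.571), so the High and Low differences were not shown to differ. The smallest p that 3 against 4 mice can give is 0.0286, and 2 of the 35 ratio tests reached it, with the smallest adjusted p at 0.414.

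Of the c ring genes, Atp5g1 and Atp5g3 kept a narrow range of ratios. Atp5g3 had 528, 384, 556 and 531 CPM in Low Control, 531, 553, 576 and 703 in Low Run, 625, 540.2 and 593 in High Control and 542, 569.9, 687 and 387 in High Run mice, with D9 and D62 lowest. The log2 ratio of Atp5g1 to Atp5g3 lay between -1.99 and -1.65 in the 15 mice, and the differences between groups were at most 0.0266. Atp5g1 itself had 132, 122, 152 and 141 CPM in Low Control, 143, 155, 156 and 213 in Low Run, 167, 149 and 178 in High Control and 157, 159, 186 and 118 in High Run mice. Atp5g2 had 0.781, 1.57, 1.06 and 0.965 CPM in Low Control, 1.51, 1.30, 1.53 and 1.35 in Low Run, 1.24, 1.74 and 0.862 in High Control and 1.40, 1.22, 1.81 and 1.102 in High Run mice, and each group overlapped every other.

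**Figure D5:**
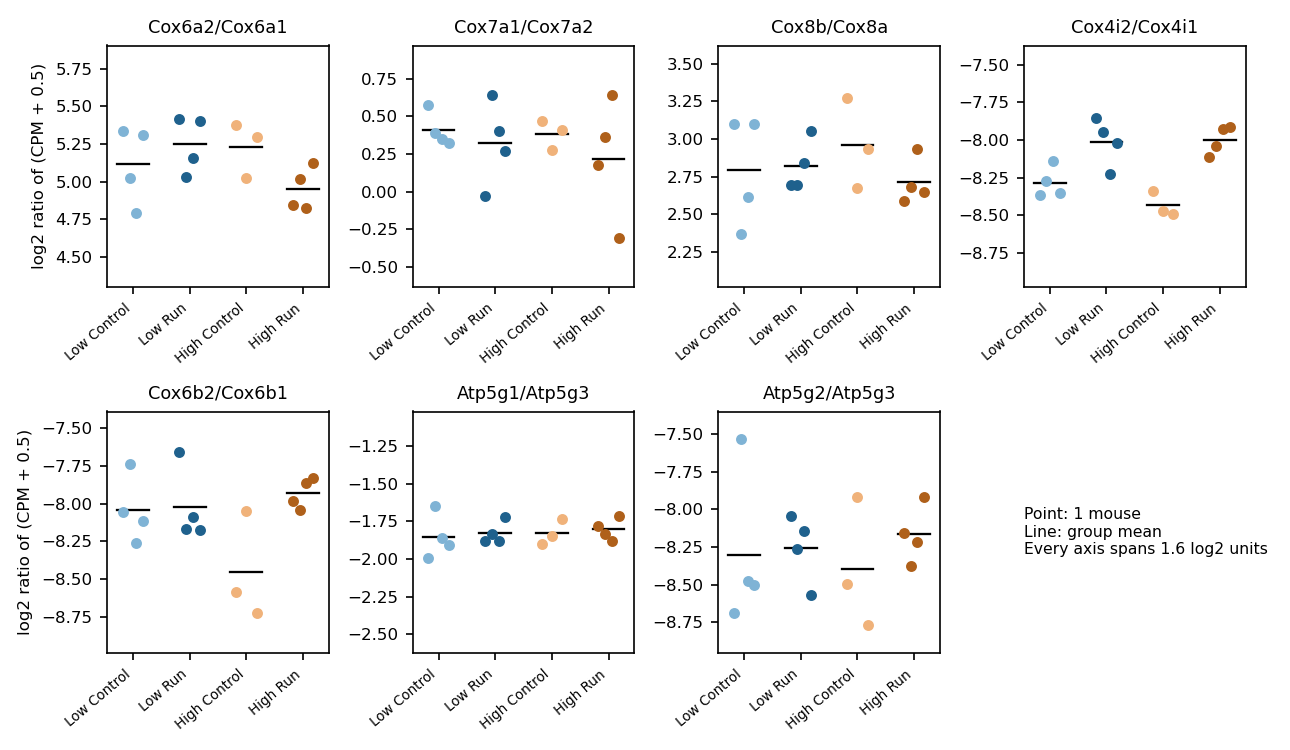
Log2 ratio of CPM + 0.5 between isoforms of the same subunit, 1 point per mouse with group means, all axes spanning the same width. High Run mice lie above High Control mice for Cox4i2/Cox4i1 and Cox6b2/Cox6b1, and the groups overlap for the other ratios in that comparison.

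Genes that build or work with these complexes were read from lists of assembly factors, complex II subunits and partners. After running in Low mice, 6 of 6 complex III assembly factors, 19 of 22 complex IV assembly factors, 4 of 4 ATP synthase assembly factors, 3 of 4 complex II subunits and 7 of 7 partners had a log2 fold change above 0. Their medians were 0.33, 0.21, 0.27, 0.26 and 0.25, near the 0.24 of the subunit genes. After running in High mice the medians were -0.18, -0.09, -0.14, -0.12 and -0.08, and for the interaction -0.41, -0.32, -0.39, -0.32 and -0.35. The 35 nuclear subunits of complex I had medians of 0.25, -0.09 and -0.38 in these 3 comparisons. None of the listed genes passed the FDR in any comparison, and Pet117 had 0 counts in every mouse.

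The related genes with the smallest p in the interaction were Atpaf2, Bcs1l and Cycs. Atpaf2, the chaperone that binds the alpha subunit during assembly, was at 24.8, 19.5, 23.2 and 23.97 CPM in Low Control and 27.1, 24.3, 26.9 and 31.6 in Low Run mice. It was at 26.2, 29.2 and 29.6 in High Control and 21.6, 23.5, 28.1 and 20.98 in High Run mice (log2 fold change -0.53, SE 0.19, edgeR FDR = 0.600 for the interaction). High Control mice were above all Low Control mice, and only D53 of the High Run mice reached the range of High Control mice. Bcs1l, which inserts the Rieske protein into complex III, had 17.6, 10.8, 22.2 and 19.5 CPM in Low Control, 22.6, 22.9, 20.3 and 24.7 in Low Run, 22.2, 23.002 and 27.001 in High Control and 18.6, 22.3, 25.2 and 13.01 in High Run mice. Its interaction was -0.65 (SE 0.31, edgeR FDR = 0.600). Cycs, cytochrome c, had 16.7, 11.4, 15.5 and 15.8 CPM in Low Control, 17.7, 14.3, 17.3 and 22.7 in Low Run, 20.3, 20.4 and 20.1 in High Control and 16.5, 18.1, 20.5 and 9.23 in High Run mice. Its interaction was -0.61 (SE 0.31, edgeR FDR = 0.600), and D62 was the lowest mouse. Cycs has pseudogene copies of its own, and its level is uncertain in the same way.

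Markers of other cell types and fibre types moved alongside some of these comparisons. The labelled tissue was evident in all libraries, with a summed level of 66239 to 96576 CPM for 7 skeletal muscle markers such as Ckm and Acta1. The summed CPM of 8 slow fibre markers ranged from 2541 to 3645 in Low Control, from 2386 to 4437 in Low Run, from 2045 to 3118 in High Control and from 2338 to 5494 in High Run mice, and 7 of 8 had a log2 fold change above 0 after running in Low mice (median 0.22) and 8 of 8 in High mice (median 0.63). Those of 7 fast glycolytic fibre markers ranged from 124898 to 179332 (median 141171) in Low Control and from 115619 to 136573 (median 123202) in Low Run mice, with 4 of 7 below 0 and 2 of 7 lower at an unadjusted edgeR p under 0.05. Among them Myh4, the fast IIb myosin, was at 69150.4, 49887, 48769.5 and 56131 CPM in Low Control and 37149, 43534, 46904 and 32689 in Low Run mice, without overlap (log2 fold change -0.48, SE 0.17, edgeR FDR = 0.358). Myh4 was at 58632, 51117 and 51769 CPM in High Control and 50216, 42367, 34444 and 31554 in High Run mice, also without overlap. The summed CPM of the fast fibre markers ranged from 145569 to 165969 in High Control and from 122177 to 123808 in High Run mice. Of them 7 of 7 were below 0 and 2 of 7 lower without overlap (3.6% of all genes). Summed CPM of 7 macrophage markers ranged from 58.6 to 120.1 in Low Control and from 89.6 to 128 in Low Run mice, with 7 of 7 above 0 (median 0.35). They ranged from 49.6 to 79.2 in High Control and from 66.3 to 156 in High Run mice, with 7 of 7 above 0 (median 0.79). Those of 7 adipocyte markers ranged from 112 to 191 in Low Control and from 89.2 to 160 in Low Run mice, with 5 of 6 tested below 0 (median -0.56). They ranged from 93.7 to 303 in High Control and from 114 to 195 in High Run mice, with 5 of 6 below 0 (median -0.31). Ucp1 was near the floor in all groups, with at most 4 counts in a mouse, and had 0 counts in Low Run mice. D62, lowest of the High Run mice for all 3 complexes, had the highest mean slow fibre level of its group. Macrophage markers were below 0 in 7 of 7 in High Control compared to Low Control (median -0.31). At an unadjusted edgeR p under 0.05 in High mice after running, 4 of 8 slow fibre and 3 of 7 macrophage markers were higher (3.28% of all genes). Of the 7 fast fibre markers 1 was lower there (1.9% of all genes). In Low mice after running 2 of 7 macrophage and 0 of 8 slow fibre markers were higher (5.92% of all genes). Of the adipocyte markers tested in Low mice 2 were lower (7.52% of all genes). The part of these markers in the results was not tested.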

How the data were processed

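Poly(A) RNA libraries from powdered gastrocnemius of 15 mice were analyzed, grouped by the frailty and running labels. The authors aligned reads to mm10 with STAR 2.7.9a and made the deposited counts, unnormalized whole numbers of properly paired, uniquely mapped reads for each non-mitochondrial Ensembl gene, with featureCounts (Subread 2.0.3 per the submitters' processing notes; the study's methods name another release). The authors also deposited variance-stabilized log2 values computed from these counts with DESeq2, which served here as an alternative for complex levels and isoform ratios. Totals per mouse ran from 19395125 to 30699216 counts.

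Symbols came from GENCODE M21 for 55104 of the 55450 counted genes, together with RefSeq names for members renamed since. The members and gene lists were chosen with earlier results of these data known. Counts were filtered with filterByExpr, normalized by TMM and tested by edgeR 4.0.16's quasi-likelihood F-test in R 4.3.3, with all mice in 1 model of 4 group means, and called at an FDR of 0.1 (Benjamini-Hochberg). CPM used TMM library sizes. Isoform ratios, on log2(CPM + 0.5), were tested by two-sided exact permutation of mice (SciPy 1.17.1, Python 3.11.15). Scripts were tested on simulated data.

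Alternatives were DESeq2 1.42.0's Wald test, limma 3.58.1's voom with sample weights, RLE and upper-quartile normalization, no filter, at least 10 counts in every mouse, only the 2 groups compared, loess offsets (span 0.3) for gene length and GC content, an FDR of 0.05, a pseudocount of 0.1, variance-stabilized values, the median over genes, and each mouse left out. Adding the counts of near-identical copies was chosen after seeing the data.

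Values per mouse are given for the isoform pairs, the 2 most abundant genes per kb of each complex, and the 3 related genes with the smallest interaction p, and for the gene with the smallest p of each complex in 4 comparisons in the groups compared. Protein sequences were not analysed here. The labels give no batch, and p-values measure the spread between mice.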

Additional observations from a re-analysis of the deposited data

Results flagged for a closer look

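Of 105 groups of 4 mice examined for the levels, ratios and CPM of the named genes, 17 held 1 mouse far from the other 3 (Dixon's criterion at 95%, which chance meets in about 1 of 20 groups), and these values are not independent because the genes moved together.

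Low Control mouse D9 lay apart with low values, at -0.35 for the level of complex III, -0.30 for complex IV and -0.34 for ATP synthase, and at 384 CPM for Atp5g3 and 177 CPM for Atp5o. Low Run mouse D68 lay apart with high values, at 0.32 for the level of ATP synthase and at 424 CPM for Atp5j, 287 CPM for Atp5o, 859 CPM for Cox4i1, 533 CPM for Cyc1 and 545 CPM for Uqcrfs1. Low Run mouse D57 had a log2 ratio of Cox6b2 to Cox6b1 of -7.65. High Run mouse D53 had 898 CPM of Cox4i1, 3.19 CPM of Cox4i2, 26.1 CPM of Cox6a1 and 1.38 CPM of Cox6b2, each above the other High Run mice, and High Run mouse D62 had 367 CPM of Uqcrc2, below them.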

How the results depend on the processing

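No subunit gene was called under any alternative run, in any of the 5 comparisons. The median log2 fold change of complex III kept its sign under every alternative in all 5 comparisons. That of complex IV after running in High mice turned from -0.04 to 0.06 without D23 and to 0.004 without D49 or without D62. That of ATP synthase turned from -0.10 to 0.02 in the same comparison, and from -0.09 to 0.007 between the Run groups, without D62.

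The log2 ratio of Cox4i2 to Cox4i1 in High Run compared to High Control ranged from 0.41 to 0.48 with 1 mouse left out, and that of Cox6b2 to Cox6b1 from 0.39 to 0.73, where 3 against 3 or 2 against 4 mice cannot reach an exact p under 0.05. The latter was 0.45 on variance-stabilized values, no longer under 0.05. The interaction of the Cox6a2 to Cox6a1 ratio passed an unadjusted 0.05 in 5 of the fits with 1 mouse left out, the lowest at -0.52 without High Control mouse D25. No paired analysis was possible because the mouse numbers are not shared between groups. Depth limits Cox4i2, Cox6b2 and Atp5g2, the genes with the fewest counts.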
